A study of Mus musculus with 8 samples.

Results

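The genes described here are 35 genes expressed by macrophages, by lymphocytes or by leukocytes at large, measured by RNA sequencing in whole ovaries of juvenile mice. They were listed by name, and all 35 were found among the 45583 gene symbols of the count table. Of the 35, 8 are shared by leukocytes in general, 22 mark myeloid cells and 5 mark T, B or NK cells. The ovaries came from 4 WT mice (animals 1118 to 1121) and 4 GOAT KO mice (animals 1139, 1140, 1141 and 1146), all 3 weeks old, on the C57/Bl6 strain and bred as littermates from heterozygous parents. *Mboat4*, which encodes GOAT (ghrelin-O-acyltransferase, which attaches an acyl group to the hormone ghrelin), was deleted in the whole animal. The deletion is thus present in macrophages and lymphocytes as well as in the ovary's own cells. Each library represents 1 mouse, and its counts on genes summed to between 16147216 and 19481798.

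Macrophages are phagocytes that live in nearly every tissue, and in the ovary they lie in the stroma, around follicles and in regressing corpora lutea, where they clear dying cells. Their survival depends on the receptor CSF1R, and their identity on the transcription factor PU.1. Some of their surface receptors, such as TREM2 and the Fc receptors of *Fcgr1* and *Fcgr3*, carry no signalling tail of their own. They work through small adaptors whose tyrosine motifs recruit the kinase SYK. T and B lymphocytes instead carry antigen receptors, whose chains CD3 and CD79 are made by almost no other cell.

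*Mboat4*, the targeted gene, had 1, 1, 1 and 3 counts in WT 1118, 1119, 1120 and 1121, and 5, 7, 7 and 8 counts in GOAT KO 1139, 1140, 1141 and 1146. This direction is the opposite of the labels, but the counts were too few for the gene to be tested. Of the exon bases of *Mboat4*, 7.35% are shared with *Gm39158* on the other strand, and the use of strand is not known. These counts therefore cannot decide on the labels. The groups are called libraries labelled WT and labelled GOAT KO, and every direction given below rests on those labels. No read crossed a splice junction of *Mboat4*, and whether these reads fell inside or outside the deleted part was not tested. The study's own PCR of this gene is not analysed here. GOAT KO 1139 and WT 1120 lay farthest from their own groups on multidimensional scaling, at a mean distance of 1.62 and 1.40 against 1.19 to 1.33 for the others. The summed level of 6 fat cell genes was 365 CPM (read counts scaled to the size of the library, with TMM factors) in GOAT KO 1139 and 8.98 to 23.7 CPM in the other 7 libraries. Where leaving out either of these libraries, or both, changed the call of a member, the value without them is given beside it.

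The highest levels were those of myeloid genes, and the lowest that of a lymphocyte gene. Levels of different genes were compared per length, as CPM per kb of exon averaged over the 8 libraries. *Lyz2*, which encodes the lysozyme of macrophages and granulocytes, stood highest at 38.0 CPM per kb. *Tyrobp*, the adaptor of TREM2, followed at 9.65 CPM per kb, then *Cd68*, a lysosomal glycoprotein, at 8.22. After these came *Ctss*, the protease cathepsin S, at 6.70, and *Fcer1g*, an adaptor of Fc receptors, at 5.69. Among neighbours in this order, the ranges over libraries of *Tyrobp*, *Cd68* and *Ctss* overlapped, while that of *Lyz2* lay above every other gene. The median over genes was 0.846 CPM per kb for the 22 myeloid genes and 1.30 for the 8 leukocyte genes. For the 5 lymphocyte genes it was 0.189, with *Cd4* highest at 0.356 and *Cd3e* lowest of all 35 at 0.0196.

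**Figure D1:**
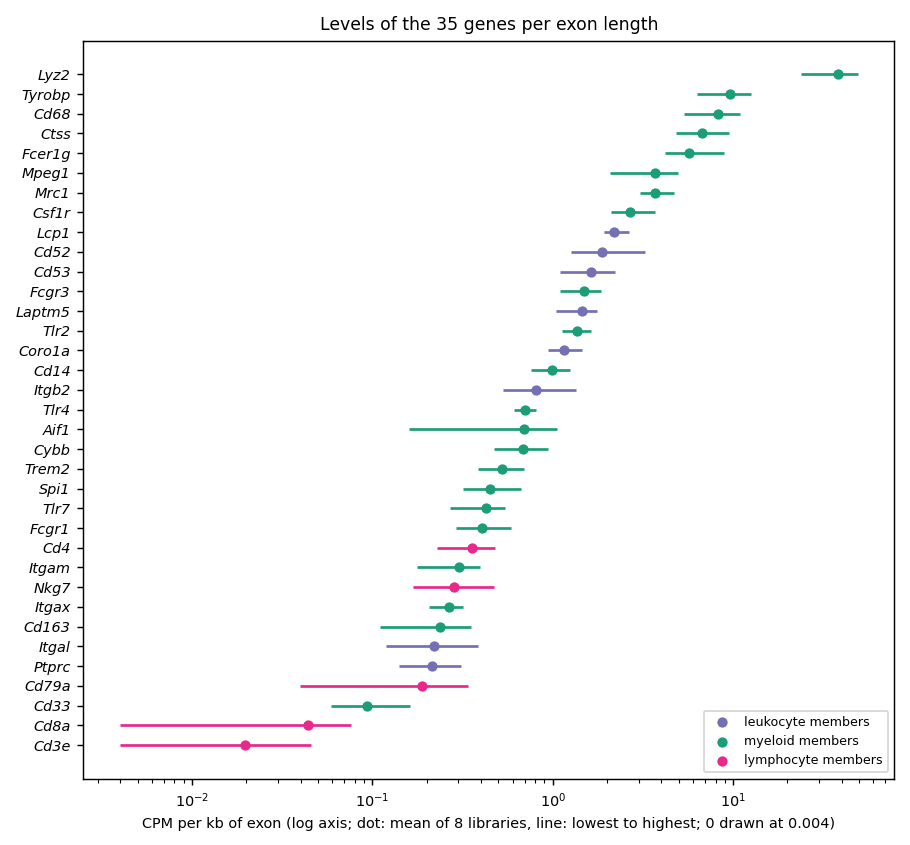
Level of each of the 35 genes in CPM per kb of exon on a log axis; the dot is the mean of 8 libraries and the line runs from the lowest to the highest library. *Lyz2* stands alone at the top at 38.0, and *Cd3e* is lowest at 0.0196.

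Most of the genes had lower values in the libraries labelled GOAT KO, by a moderate amount. Of the 35 genes, 31 had enough counts to be tested, and 27 of these 31 had a negative log2 fold change of GOAT KO over WT, where 50.1% of all 16601 genes tested did. Their median log2 fold change was -0.28, against -0.00035 over all genes tested. The shift was uneven over libraries. The median log2 deviation of the 31 genes from their own means was 0.31, -0.020, -0.053 and 0.32 in WT 1118, 1119, 1120 and 1121. It was -0.12, -0.20, 0.026 and -0.21 in GOAT KO 1139, 1140, 1141 and 1146, so WT 1119 and WT 1120 lay below GOAT KO 1141. The genes moved together by library, so counts of genes are not counts of independent results. A gene was called at an unadjusted p under 0.05 from edgeR's quasi-likelihood test with an absolute log2 fold change over 0.5. By this rule 6 of the 31 were called lower (*Itgal*, *Cd33*, *Fcgr1*, *Lyz2*, *Trem2* and *Tyrobp*), where 0.717% of all genes tested were, and none was called higher, where 0.958% of all genes were. With an absolute log2 fold change over 0.3, 9 genes were called lower, with *Ctss*, *Tlr7* and *Mpeg1* added, against 1.27% of all genes, and none higher against 1.58%. After adjustment over all 16601 genes by the Benjamini-Hochberg method, none of the members passed 0.05 in edgeR's test, where 0.0241% of all genes did. The smallest adjusted p was 0.983 by this test and 0.122 by DESeq2. With an unadjusted p under 0.05 from edgeR, 9 members were lower, where 2.13% of all genes tested were, and none was higher, where 2.49% were. By DESeq2 6 members and by limma-voom 9 had an unadjusted p under 0.05, and the shares of all genes by these are not given here. The count of 6 depended on single libraries. It was 1 without GOAT KO 1146, 2 without WT 1121, 3 without WT 1118, 4 without GOAT KO 1139 and 9 without GOAT KO 1141. With 3 libraries a group, leaving out WT 1120 and GOAT KO 1139, 7 members were called lower and none higher, where 1.08% and 1.32% of all genes were, and 28 of 31 were negative, where 49.7% of all genes were. In these 6 libraries 11 of the 31 had every GOAT KO value below every WT value, where 7.52% of all genes did, and none had every value above, where 8.24% did. No member passed adjustment over all genes there either, where 0.12% of genes did. In whole tissue, fewer cells of a type and less RNA per cell cannot be told apart.

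**Figure D2:**
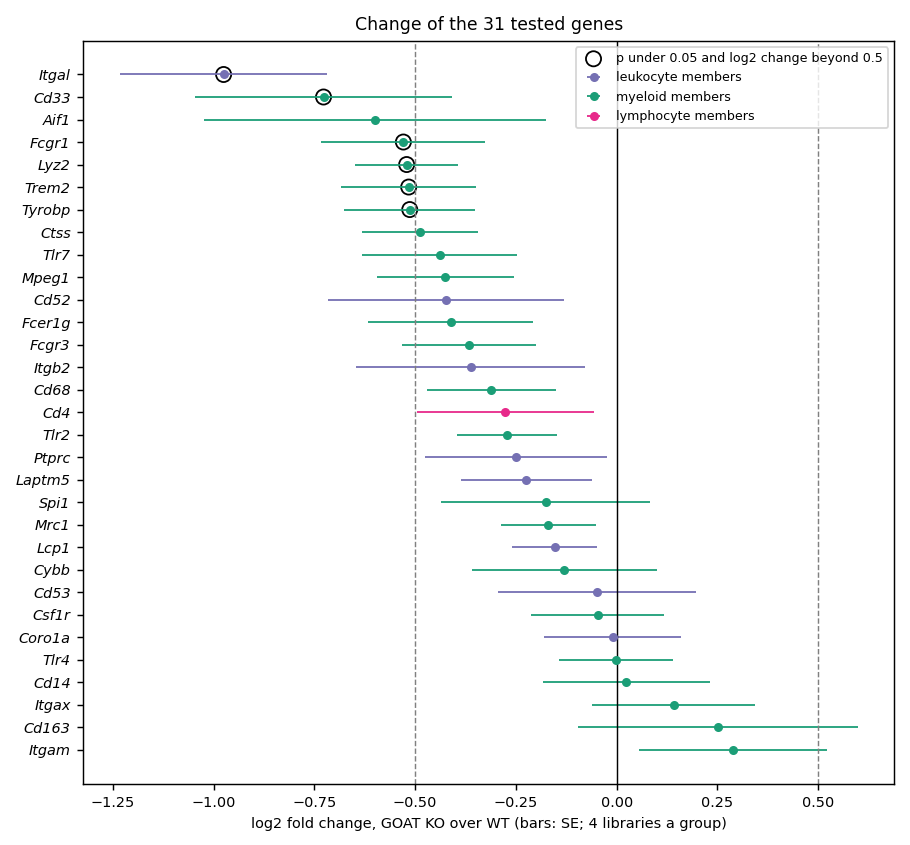
Log2 fold change of GOAT KO over WT for the 31 genes tested, coloured by gene class; bars are standard errors from edgeR with 4 libraries a group, dashed lines mark 0.5 on either side of 0, and circles mark the 6 genes called. The points run from -0.98 for *Itgal* to 0.29 for *Itgam*, and 27 lie below 0.

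The myeloid genes held 5 of the 6 calls, and 0.717% of all genes tested were called lower. Of the 22, 18 were negative, with a median log2 fold change of -0.34, and 6 had every library labelled GOAT KO below every library labelled WT, where 1.27% of all genes tested did. None had the groups apart in the other direction, where 1.64% of all genes did. Of the 8 leukocyte genes all were negative, with a median of -0.24 and 1 call, and 1 had groups that did not overlap. Among the 5 lymphocyte genes only *Cd4* passed the filter on low counts, and its log2 fold change of -0.28 (SE 0.22, p = 0.234 from edgeR's quasi-likelihood test and p = 0.286 from the exact permutation test over libraries) had a 95% interval from -0.76 to 0.21. In the fit without that filter all 5 lymphocyte genes were negative, with a median of -0.37 against -0.35 for the myeloid genes. None of the 5 had a p under 0.05 there, and their standard errors were between 0.24 for *Cd4* and 0.93 for *Cd3e*. A difference between the myeloid and the lymphocyte genes in response was not tested.

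The genes of Fc receptors, of TREM2 and of their adaptors had a median log2 fold change of -0.51. Of these 5 genes 3 were called lower, where 0.717% of all genes tested were. *Tyrobp* (chromosome 7 from 30413760 to 30417585) had 8.12, 6.83, 8.40 and 6.98 CPM in WT 1118, 1119, 1120 and 1121, and 4.19, 5.81, 6.71 and 4.47 CPM in GOAT KO 1139, 1140, 1141 and 1146. All WT values lay above all GOAT KO values, though GOAT KO 1141 and WT 1119 were nearly equal. The log2 fold change was -0.51 (SE 0.16, edgeR p = 0.00929, exact permutation p = 0.0286). It was -0.36 and no longer called without WT 1120 and GOAT KO 1139 together, and it lay inside 0.5 without WT 1118, WT 1120, GOAT KO 1139 or GOAT KO 1146 alone, down to -0.42. *Trem2* (chromosome 17 from 48346401 to 48354147), a receptor for lipids and cell debris that signals through TYROBP, had 2.97, 3.45, 2.58 and 3.16 CPM in the WT libraries and 1.92, 2.08, 2.56 and 1.92 CPM in the GOAT KO libraries. Here too the groups did not overlap, and WT 1120 and GOAT KO 1141 were almost equal. Its log2 fold change was -0.52 (SE 0.17, edgeR p = 0.0109, exact permutation p = 0.0286). For *Trem2* it lay inside 0.5, between -0.50 and -0.45, without WT 1119, WT 1121, GOAT KO 1139 or GOAT KO 1146. *Fcgr1* (chromosome 3 from 96282909 to 96293969), the high-affinity receptor for IgG, had 1.18, 1.17, 1.10 and 1.53 CPM in WT and 0.897, 0.917, 0.870 and 0.755 CPM in GOAT KO, without overlap. Its log2 fold change was -0.53 (SE 0.20, edgeR p = 0.0256, exact permutation p = 0.0286), and -0.42 without WT 1121 and -0.47 without GOAT KO 1146, where it was not called, nor was it by DESeq2 (-0.53). *Fcgr3*, a low-affinity receptor for IgG, and *Fcer1g* were negative but not called, with log2 fold changes of -0.37 (SE 0.17) and -0.41 (SE 0.20), and their groups overlapped. *Fcgr3* passed at 0.3 without WT 1119 (-0.45) or GOAT KO 1139 (-0.43), and *Fcer1g* passed at 0.5 without WT 1119 (-0.57) and at 0.3 without the filter on low counts (-0.42). A permutation p of 0.0286 is the smallest that 4 libraries against 4 allow in this two-sided test.

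Among the genes of the lysosome, the pore and the oxidase, *Lyz2* was called and *Ctss* and *Mpeg1* passed at the lower limit of 0.3. *Lyz2* (chromosome 10 from 117277331 to 117282321) had 63.9, 52.3, 55.3 and 64.5 CPM in WT 1118, 1119, 1120 and 1121, and 41.3, 41.3, 50.3 and 31.4 CPM in GOAT KO 1139, 1140, 1141 and 1146. The groups did not overlap, and GOAT KO 1146 was lowest. *Lyz2* had a log2 fold change of -0.52 (SE 0.13, edgeR p = 0.00188, exact permutation p = 0.0286), the smallest edgeR p among the members, and kept an unadjusted p under 0.05 in each fit that left out 1 library, while its fold change lay inside 0.5 without WT 1118, WT 1121 or GOAT KO 1146. Its close copy *Lyz1*, with which reads could be shared, had 30 counts in all. *Ctss* (chromosome 3 from 95526786 to 95556403), which trims the invariant chain of MHC class II, had 10.9, 9.28, 9.44 and 12.9 CPM in WT and 7.72, 6.91, 9.06 and 6.57 CPM in GOAT KO. Its groups did not overlap either, with a log2 fold change of -0.49 (SE 0.14, edgeR p = 0.00606, exact permutation p = 0.0286). *Ctss* passed at 0.5 in 6 libraries (-0.55) and without WT 1119 (-0.55), WT 1120 (-0.55) or GOAT KO 1141 (-0.59). *Mpeg1*, which encodes the pore protein perforin-2 of phagocytes, had 15.5 to 21.6 CPM in WT and 9.03 to 16.3 CPM in GOAT KO, where GOAT KO 1139 was lowest. *Mpeg1* had a log2 fold change of -0.42 (SE 0.17, edgeR p = 0.0306, exact permutation p = 0.0571), with overlapping groups. Without GOAT KO 1139 it was -0.27, and neither there nor without WT 1118 (-0.40) or WT 1121 (-0.34) did *Mpeg1* pass at 0.3, while it passed at 0.5 without WT 1120 (-0.50) or GOAT KO 1141 (-0.53). *Cybb*, the catalytic subunit of the phagocyte oxidase, was not called, at -0.13 (SE 0.23).

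Of the Toll-like receptor genes, 1 of 3 was lower at 0.3, where 1.27% of all genes tested were, and differences between them were not tested. *Tlr7*, the endosomal receptor for single-stranded RNA (chromosome X from 167304929 to 167330558), had 2.23, 2.06, 1.65 and 2.07 CPM in WT and 1.62, 1.47, 1.69 and 1.10 CPM in GOAT KO. The groups overlapped through WT 1120 and GOAT KO 1141, and the log2 fold change was -0.44 (SE 0.19, edgeR p = 0.0443, exact permutation p = 0.0571). *Tlr7* did not pass without WT 1118, 1119 or 1121, without GOAT KO 1139, 1140 or 1146, without the filter on low counts or by DESeq2, with values from -0.48 to -0.33. It passed at 0.5 in 6 libraries (-0.57) and without WT 1120 (-0.53) or GOAT KO 1141 (-0.52). *Tlr2*, the receptor for bacterial lipoproteins, had 4.28 to 4.91 CPM in WT and 3.38 to 3.91 CPM in GOAT KO. Its groups did not overlap, with a log2 fold change of -0.27 (SE 0.12, edgeR p = 0.0522, exact permutation p = 0.0286), which was not called. *Tlr4*, the receptor for lipopolysaccharide, was at -0.0018 (SE 0.14) with a 95% interval from -0.31 to 0.31. Its co-receptor *Cd14* was at 0.024 (SE 0.21).

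Of the genes that leukocytes share, *Itgal* had the largest change of all 31 genes with 8 libraries, while *Cd33* matched it at -1.03 in 6 libraries and *Aif1* was at -1.02 against -1.01 without GOAT KO 1141. *Itgal* (chromosome 7 from 127296260 to 127335138) encodes the alpha chain of LFA-1, an adhesion receptor of lymphocytes, monocytes and macrophages. It had 2.54, 1.56, 1.32 and 2.29 CPM in WT 1118, 1119, 1120 and 1121, and 0.778, 0.917, 1.02 and 1.16 CPM in GOAT KO 1139, 1140, 1141 and 1146. Every GOAT KO library lay below every WT library, and WT 1118 and WT 1121 were the highest. The log2 fold change was -0.98 (SE 0.26, edgeR p = 0.00302, exact permutation p = 0.0286), and it stayed called in all 13 alternatives, between -1.12 and -0.82. *Itgb2*, the beta chain that pairs with it, was at -0.36 (SE 0.28), and its groups overlapped. *Ptprc*, which encodes CD45, had 2.58 to 5.67 CPM in WT and 3.25 to 3.97 CPM in GOAT KO. Its log2 fold change of -0.25 (SE 0.23) was not called. Without WT 1120 it was -0.43 and passed at 0.3, and without WT 1121 it was -0.080. *Cd52*, a small surface glycoprotein, was at -0.42 (SE 0.29) and passed at 0.5 only without WT 1119 (-0.62). *Coro1a*, an actin regulator, and *Cd53*, a tetraspanin, were at -0.0095 (SE 0.17) and -0.049 (SE 0.25).
The other integrin alpha chains, *Itgam* (CD11b) and *Itgax* (CD11c), had positive log2 fold changes of 0.29 (SE 0.23) and 0.14 (SE 0.20) and were not called. Of the exon bases of *Itgam*, 68.7% are shared with *Gm49368* on the same strand, so its reads could be split between both genes.

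The receptor and the factor of macrophage identity were not called. Of 6 surface and cytoplasmic markers 1 was called lower, where 0.717% of all genes tested were. *Csf1r* had 16.9, 12.4, 12.1 and 21.2 CPM in WT and 14.8, 14.2, 16.4 and 15.2 CPM in GOAT KO, where the GOAT KO libraries lay inside the WT range. Its log2 fold change was -0.047 (SE 0.17), with a 95% interval from -0.41 to 0.32. Of the exon bases of *Csf1r*, 15.1% are shared with *Hmgxb3* on the other strand, and the use of strand is not known. *Spi1*, which encodes PU.1, was at -0.18 (SE 0.26), with a 95% interval from -0.75 to 0.39. Of the surface markers, *Mrc1*, the mannose receptor, was at -0.17 (SE 0.12), *Cd68* at -0.31 (SE 0.16) and the scavenger receptor gene *Cd163* at 0.25 (SE 0.35), none of them called. *Cd68* passed at 0.3 without GOAT KO 1140 (-0.39) or GOAT KO 1141 (-0.40), and *Cd163* was at -0.15 in 6 libraries. *Cd33*, a sialic acid-binding receptor, was called, with 1.12, 0.778, 0.494 and 1.25 CPM in WT and 0.658, 0.489, 0.461 and 0.581 CPM in GOAT KO. These levels are low, and those of WT 1120, GOAT KO 1140 and GOAT KO 1141 lay below 0.566 CPM, the limit of the filter on low counts. WT 1120 lay among the GOAT KO values, and the log2 fold change was -0.73 (SE 0.32, edgeR p = 0.0439, exact permutation p = 0.0857). Without WT 1121 it was -0.53, and the call was lost in 7 of the 13 alternatives, those without WT 1118, WT 1121, GOAT KO 1140, GOAT KO 1141 or GOAT KO 1146 and by DESeq2 and limma-voom. *Aif1*, which encodes the actin-binding protein IBA1, had a log2 fold change of -0.60 (SE 0.42, edgeR p = 0.185, exact permutation p = 0.257), with 0.611 to 1.61 CPM in WT and 0.244 to 1.43 CPM in GOAT KO. Without GOAT KO 1140 it was -0.31, and without GOAT KO 1141 it was -1.02 and was called.
The count of *Lyz2* for each count of *Csf1r*, a pair chosen after the values were seen from 4 such ratios, was 3.78, 4.22, 4.56 and 3.04 in WT, and 2.79, 2.91, 3.07 and 2.06 in GOAT KO. GOAT KO 1141 lay just above WT 1121. The count of *Lyz2* for each count of *Cd68* overlapped more widely, at 4.67 to 5.48 in WT and 3.63 to 6.11 in GOAT KO.

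**Figure D3:**
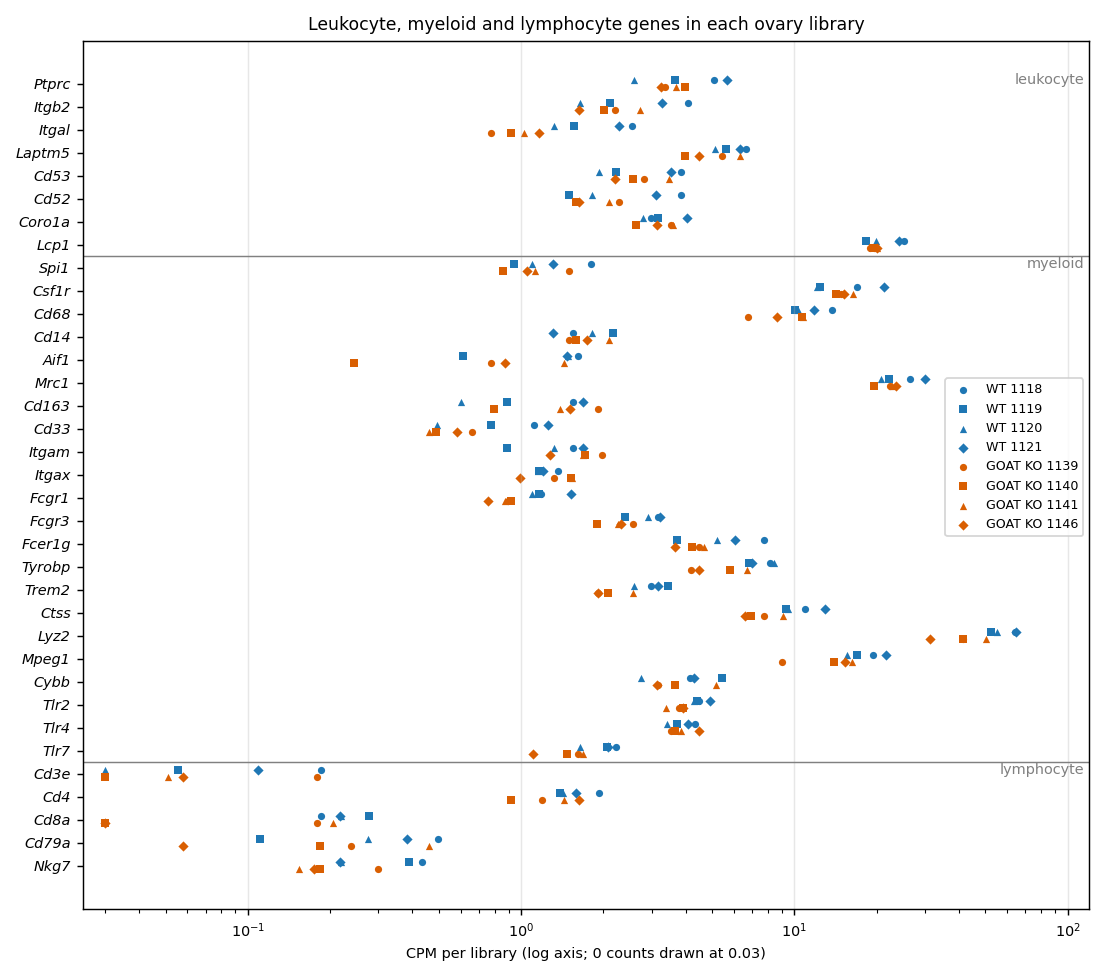
CPM of the 35 genes in each library on a log axis, with WT in blue above GOAT KO in orange for each gene and a marker shape for each animal; 0 counts are drawn at 0.03. Values of *Itgal*, *Fcgr1*, *Tyrobp*, *Trem2*, *Ctss*, *Lyz2* and *Tlr2* do not overlap between the groups, and 4 of the 5 lymphocyte genes lie below 0.5 CPM in every library.

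The lymphocyte genes other than *Cd4* were close to the limit of detection. The CPM range of *Cd4* overlapped those of *Fcgr1*, *Itgal* and *Cd33*, which were called. *Cd3e*, a chain of the T cell receptor complex, had 0 to 0.186 CPM in WT and 0 to 0.180 CPM in GOAT KO, with no read in WT 1120 and GOAT KO 1140. *Cd79a*, the signalling chain of the B cell receptor, had 0.111 to 0.496 CPM in WT and 0.0581 to 0.461 CPM in GOAT KO. *Cd8a*, the coreceptor of cytotoxic T cells, had 0.186, 0.278, 0.220 and 0.218 CPM in WT and 0.180, 0, 0.205 and 0 CPM in GOAT KO, and *Nkg7*, a granule protein of NK and cytotoxic T cells, 0.218 to 0.434 and 0.154 to 0.299 CPM. Without *Cd4*, the lymphocyte genes had 109 counts in all 8 libraries together, 66 in WT and 43 in GOAT KO. No difference between the groups was called for them, with these few counts, in the fit without a filter. *Cd4* had 1.92, 1.39, 1.43 and 1.58 CPM in WT and 1.20, 0.917, 1.43 and 1.63 CPM in GOAT KO, and the groups overlapped. *Cd4* is made by helper T cells and also, at lower levels, by some macrophages and dendritic cells, and which cells its reads came from was not tested.

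Summed over each class, the groups overlapped. The 22 myeloid genes summed to 200, 164, 164 and 208 CPM in WT 1118, 1119, 1120 and 1121, and to 138, 141, 166 and 135 CPM in GOAT KO 1139, 1140, 1141 and 1146. GOAT KO 1141 alone lay above the lowest WT libraries. The leukocyte genes summed to 37.1 to 54.1 CPM in WT and 37.0 to 43.0 CPM in GOAT KO, and the lymphocyte genes to 2.14 to 3.22 and 1.28 to 2.30 CPM. The myeloid sum was 62.1 to 83.0 times the lymphocyte sum in WT and 65.8 to 110 times in GOAT KO. The WT libraries differed among themselves in a shared way, since WT 1118 or WT 1121 was the highest of its group for 27 of the 31 genes, and WT 1120 the lowest for 18 and WT 1119 for 12. GOAT KO 1141 was the highest of its group for 18.
Blood cell genes, with hemoglobins as the main part, summed to 146 to 591 CPM in WT and 160 to 336 CPM in GOAT KO. All 5 of them that were tested were negative, with a median log2 fold change of -0.28, or -0.34 in 6 libraries, and none had a p under 0.05. By library, WT 1119 had the highest blood cell sum at 591 CPM, with 204 CPM over the 35 genes. WT 1121 had 172 CPM of blood cell genes and the highest sum of the 35 genes, 263 CPM. WT 1118 was high by both sums, at 436 and then 257 CPM. In the same order, WT 1120 had 146 and 203 CPM, and GOAT KO 1139 had 160 and 179 CPM. GOAT KO 1140 had 336 and 180 CPM, GOAT KO 1141 had 286 and 212 CPM, and GOAT KO 1146 had 295 and 174 CPM. A relation between these sums was not tested. Granulosa cell genes summed to 4645 to 5516 and 5251 to 5826 CPM. Of 6 granulosa cell genes 4 were positive, and *Fshr*, the receptor of follicle-stimulating hormone (0.47), and *Fst*, which encodes follistatin (0.36), passed at 0.3. All 7 oocyte genes were positive, with a median of 0.052, and *Figla*, an oocyte transcription factor gene (0.46), passed at 0.3. In 6 libraries *Fshr* passed at 0.5 (0.68), *Figla* did not pass (0.43), and 6 of the 7 oocyte genes were positive. Of 5 tested theca and steroidogenic genes 4 were positive, with a median of 0.28 and none with a p under 0.05, where 6 libraries gave 3 positive and 2 higher with a p under 0.05. These summed to 1967 to 3118 CPM in WT and 2493 to 3165 CPM in GOAT KO. Of the neutrophil list none of 8 genes was tested, with 79 counts in WT and 93 in GOAT KO in all. The 5 lymph node genes had 30 and 34 counts, and *Glycam1*, which marks lymph node vessels, had 0 in every library. The part of blood, fat, follicle cells or neighbouring tissue in the myeloid values was not tested.

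**Figure D4:**
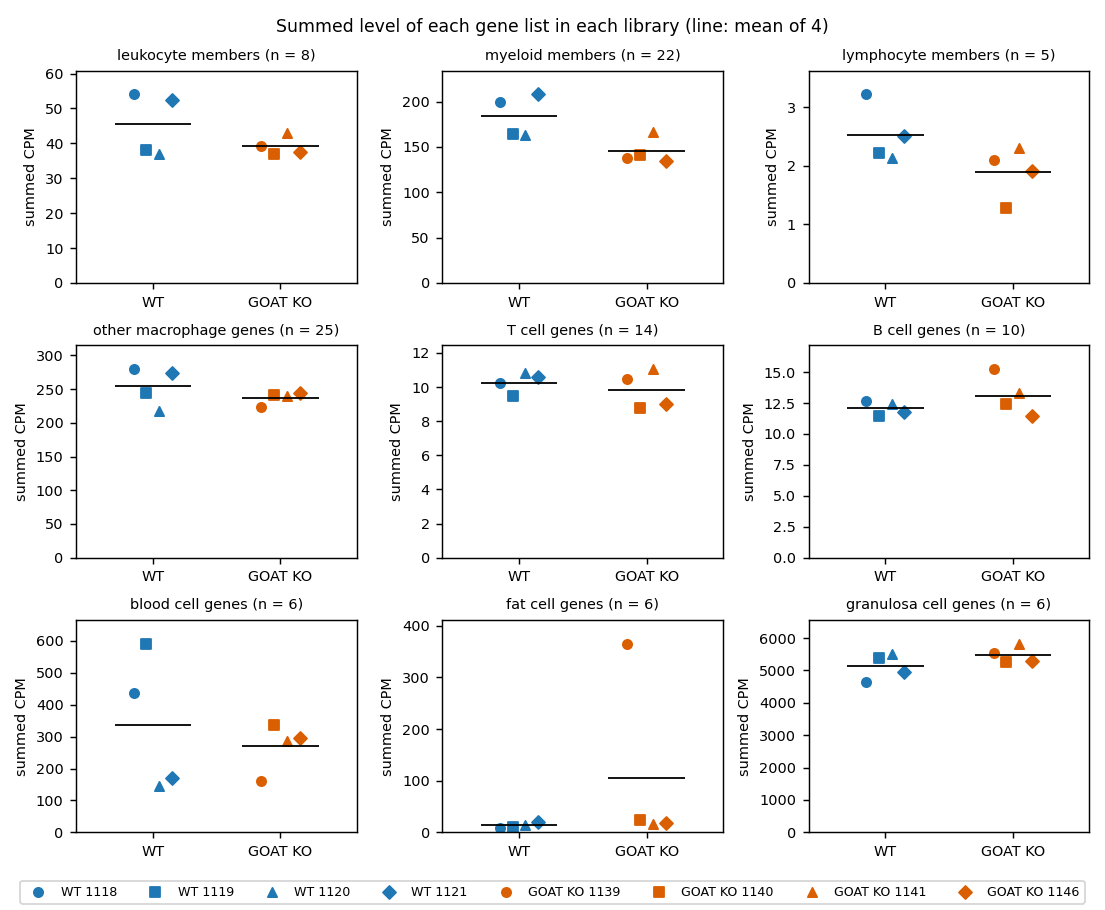
Summed CPM of 9 gene lists in each library (points, a shape for each animal; line, mean of 4; axes start at 0). The myeloid sums are 164 to 208 CPM in WT and 135 to 166 CPM in GOAT KO, the T cell sums are 9.45 to 10.8 and 8.80 to 11.1 CPM, and GOAT KO 1139 stands apart in fat cell genes at 365 CPM.

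Other macrophage genes, outside the 35, were mostly negative. Of 25 listed, all were tested, 18 were negative, and their median log2 fold change was -0.20. With an unadjusted p under 0.05 from edgeR, 7 were lower, where 2.13% of all genes tested were, and 1 was higher, where 2.49% were. Among the lower ones were *Slc11a1*, a metal transporter of phagosomes (-0.73), *Ms4a7* (-0.69), the glucan receptor gene *Clec7a* (-0.62), *Adgre1*, which encodes F4/80 (-0.36), and the complement genes *C1qc* (-0.32) and *C1qb* (-0.30). *Adgre1* had 6.19 to 7.25 CPM in WT and 4.85 to 5.58 CPM in GOAT KO, without overlap. *Folr2*, a folate receptor gene of resident macrophages, was higher (0.60, SE 0.26), and 63.1% of its exon bases are shared with *Gm10602* on the other strand. In the 6 libraries *Folr2* was at 0.50 with a p over 0.05, and 22 of the 25 genes were negative. The list's summed level was 218 to 280 CPM in WT and 224 to 245 CPM in GOAT KO.
Of 15 tested genes of CSF1 and adaptor signalling, only *Syk* had a p under 0.05. *Syk* had 29.3, 30.0, 31.4 and 32.0 CPM in WT and 26.4, 23.3, 24.3 and 27.5 CPM in GOAT KO, without overlap, and a log2 fold change of -0.27 (SE 0.074, edgeR p = 0.00371, exact permutation p = 0.0286). The ligands of CSF1R, *Csf1* and *Il34*, were at -0.10 (SE 0.089) and 0.081 (SE 0.18). None of 17 tested genes of Toll-like receptor signalling and none of 4 tested oxidase subunits had a p under 0.05. Of the T cell list 6 of 14 genes and of the B cell list 4 of 10 could be tested, and none had a p under 0.05, with medians of 0.0091 and -0.025. With 6 libraries the T cell median was -0.35 over the 4 genes then tested, 3 of them negative, beside -0.35 for the myeloid genes, and the B cell median was -0.15. Again none had a p under 0.05. *Lck*, a kinase of T cells and the most abundant of its list, was at 0.033 (SE 0.18). Of the mast cell genes, *Cma1*, a chymase, was higher (1.05, SE 0.37, edgeR p = 0.0170, exact permutation p = 0.0571), at 0.273 to 0.620 CPM in WT and 0.523 to 1.32 CPM in GOAT KO. In the 6 libraries *Cma1* was at 0.62 and did not pass. Only 2 of the 6 mast cell genes were tested, and the other was at -0.039. The list summed to 12.3 to 21.3 CPM in WT and 13.7 to 23.4 CPM in GOAT KO, with overlapping groups. In the fit without the filter on low counts 4 of the 6 were positive and 2 negative. There 3 were higher with a p under 0.05, where 653 of all 27459 genes were.

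Spliced reads were found for most of the genes. Annotated junctions of 31 of the 35 genes were crossed, with 1742 reads over the myeloid genes in WT and 1256 in GOAT KO, and 14 and 9 reads over the lymphocyte genes. *Tyrobp* had 74, 56, 83 and 64 junction reads in WT and 17, 39, 65 and 34 in GOAT KO, so that GOAT KO 1141 lay within the WT range. *Lyz2* had 106, 94, 94 and 116 and then 55, 62, 93 and 41. These reads are also part of the gene counts and are no independent measure. *Ptprc* had 2 to 16 junction reads per library, too few to describe its isoforms.

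Promoters of 3 myeloid genes that were lower, *Lyz2* and *Fcgr1* at 0.5 and *Ctss* at 0.3, and of a lymphocyte gene are shown because PU.1, the factor encoded by *Spi1*, binds purine-rich sites upstream of many myeloid genes. Windows of 250 bases before to 50 after the start were taken from RefSeq (GRCm38.p6) for 25 of the 35 genes, 29 windows in all. The search was made for 3 motifs on both strands, first over all 300 bases and then over the 250 bases upstream. GAGGAA was chosen to be shown, and the 250 bases with it, after these counts were seen, so its share is a description of a picked motif. Over 300 bases, GAGGAA, read as its reverse complement on the other strand, was in 17 of 29 windows (58.6%) against 28.3% of all 32851 windows, the longer GAGGAAGT, which contains it, in 2 (6.90%) against 3.20%, and TATAAA in 3 (10.3%) against 13.6%. Over 250 bases the counts were 16 (55.2%) against 23.3% for GAGGAA, 0 against 2.44% for GAGGAAGT and 3 (10.3%) against 12.4% for TATAAA. By gene, GAGGAA was upstream of 9 of 16 myeloid, 3 of 5 leukocyte and 3 of 4 lymphocyte genes, against 25.9% of all 27025 genes. The 250 bases upstream of these genes follow, 5′ to 3′ on the strand of the gene, with matches to GAGGAA on either strand in capitals. They are chr10:117282273-117282522 (− strand) for *Lyz2*, chr3:95526536-95526785 (+ strand) for *Ctss*, chr3:96293970-96294219 (− strand) for *Fcgr1* and chr9:45009612-45009861 (− strand) for *Cd3e*.
Lyz2: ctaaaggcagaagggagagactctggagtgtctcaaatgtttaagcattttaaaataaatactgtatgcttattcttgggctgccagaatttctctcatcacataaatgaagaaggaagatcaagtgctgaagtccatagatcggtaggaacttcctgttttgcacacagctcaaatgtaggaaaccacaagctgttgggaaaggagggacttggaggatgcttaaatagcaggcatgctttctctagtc
Ctss: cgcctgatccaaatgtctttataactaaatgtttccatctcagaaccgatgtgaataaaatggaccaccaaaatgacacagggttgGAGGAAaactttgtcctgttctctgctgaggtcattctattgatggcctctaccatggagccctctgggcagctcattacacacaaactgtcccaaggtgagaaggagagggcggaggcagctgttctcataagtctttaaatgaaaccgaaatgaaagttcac
Fcgr1: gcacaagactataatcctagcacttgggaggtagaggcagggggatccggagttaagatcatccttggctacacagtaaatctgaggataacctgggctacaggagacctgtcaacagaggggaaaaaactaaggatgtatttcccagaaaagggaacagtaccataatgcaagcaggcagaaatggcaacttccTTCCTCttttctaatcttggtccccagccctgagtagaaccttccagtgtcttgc
Cd3e: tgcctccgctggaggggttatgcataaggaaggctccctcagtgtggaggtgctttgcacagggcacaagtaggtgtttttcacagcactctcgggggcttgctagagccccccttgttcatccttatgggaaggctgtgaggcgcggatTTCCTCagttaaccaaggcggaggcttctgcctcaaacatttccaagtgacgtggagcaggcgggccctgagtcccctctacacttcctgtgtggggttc
*Lyz2*, the most abundant of the genes and called lower, has no match in this window, while *Ctss*, *Fcgr1* and *Cd3e* have 1 each. The motif was thus found in myeloid and in lymphocyte promoters, and a match is no evidence of binding.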

How the data were processed

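RNA of 1 ovary from each of 8 mice was sequenced by the authors as 50 bp single reads on an Illumina HiSeq. Per the labels, reads were aligned to mm10 (GRCm38) with TopHat2 2.0.14, and the authors deposited read counts per gene symbol, without normalization, and counts of reads across splice junctions. The counting tool and the use of strand are not given in the sources used here, so overlapping genes cannot be told apart. Transcripts assembled with StringTie 1.0.4 were not used.

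The gene counts went into edgeR 4.0.16 (R 4.3.3), with TMM scaling, filterByExpr (10 counts in a library of median size, or 0.566 CPM, in at least 4 libraries, and 15 in all) and the quasi-likelihood test on all genes, with Benjamini-Hochberg adjustment over them. A call asked for p under 0.05 before adjustment and for a log2 change of more than 0.5, or 0.3, in either direction (limits from the paper, which does not say whether its p was adjusted). The paper dropped 1 library per group without naming it, so all 8 are the main set. CPM are TMM-scaled, levels per kb use exon lengths of GENCODE vM21, and positions are those of GRCm38. Single values were compared by two-sided exact permutation. Alternatives were RLE scaling, no filter, DESeq2 1.42.0, limma-voom (limma 3.58.1), each library left out and 6 libraries (without WT 1120 and GOAT KO 1139, farthest from their groups on multidimensional scaling of 500 genes). The test was checked on simulated counts. No pair of libraries within a group differed by less than sampling noise (chi-square per gene 4.22 to 27.1).

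The members, gene lists and tests were chosen with earlier results of these data known. The genes named are the 35 members and, of other lists, those with p under 0.05, the most abundant one, and those a result turned on, except a few genes that are not reported here. In all, 3 promoter motifs were searched, and the motif and window shown were picked after the counts were seen.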

Additional observations from a re-analysis of the deposited data

Results flagged for a closer look

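Among the 31 tested genes, each group of 4 libraries was checked for a library far from the others, 62 groups in all, and 1 was found. *Aif1* was lowest in WT 1119, at 0.611 CPM, while the other WT libraries had 1.47 to 1.61 CPM. The gap to the nearest library was 0.861 of the group's whole range, above Dixon's critical value for 4 samples. Chance alone marks about 1 in 20 groups.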

How the results depend on the processing

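The median log2 fold changes of the leukocyte, myeloid and lymphocyte genes stayed negative in all 13 alternatives, and with 1 library left out the myeloid median lay between -0.40 and -0.25, the leukocyte median between -0.36 and -0.14 and the lymphocyte value (*Cd4*) between -0.40 and -0.15. Over all genes 278 were called at 0.5, 691 without a filter, 437 without WT 1120 and 231 to 437 with 1 library left out. At 0.3, 473 were called, 918 without a filter, 793 with 6 libraries, 866 without WT 1120 and 382 to 866 with 1 library left out. Of the members, 6 were called at 0.5, 4 by DESeq2, 5 by limma-voom, and 1 to 9 with 1 library left out (3 without WT 1118, 2 without WT 1121 and 1 without GOAT KO 1146). At 0.3, 9 were called, and 5 to 11 with 1 library left out (5 without WT 1121). The cause was not tested.

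Genes near 0 changed sign. With 1 library left out *Cd53* lay between -0.21 and 0.11, *Coro1a* between -0.079 and 0.11, *Spi1* between -0.33 and 0.017, *Csf1r* between -0.16 and 0.13, *Cd14* between -0.090 and 0.16, *Cybb* between -0.33 and 0.023 and *Tlr4* between -0.077 and 0.053. *Cd53* was at 0.0016 and *Tlr4* at 0.00092 by limma-voom, and *Cd163* at -0.15 with 6 libraries. No paired analysis was possible because the labels do not give the litter of each animal, so litter could not be taken into account. Of the lymphocyte genes, 4 of 5 had too few counts to pass the filter.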
